A study of Mus musculus with 4 samples.

Results

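Cytosolic ribosomal proteins build, with ribosomal RNA, the large and small subunits that translate messenger RNA outside mitochondria. Their genes were taken here as every probe set annotated to a single gene symbol that reads Rpl or Rps followed by a number and optional small letters, or Rplp0, Rplp1 or Rplp2. The rule found 32 genes, measured by 46 probe sets, among 8251 genes and 10833 probe sets that carry 1 gene symbol. A probe set is the group of short probes that reports 1 transcript on the array, and its signal is an intensity with no unit. Of the 46 sets, 32 were bright, with a mean signal of at least 100 over the arrays, and covered 23 genes, while 14 were dim and covered 11. The values nearest to that limit were 102 for a set of Rps4l and 105 for a set of Rps24 on the bright side, and 94.3 for a set of Rps4x and 77.6 for the set of Rpl35a on the dim side. Some genes have both bright and dim sets, and of the bright sets 19, for 17 genes, had a mean signal of at least 1000. For log2 ratios a signal below 100, the floor, was raised to 100, and a fold against such a signal is given as at least that size.

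The signals were those of the mouse gastrocnemius, the main muscle of the calf, on 4 Affymetrix MG-U74Av2 arrays, 1 per group. RNA of 10 mice was pooled for each: an intact group, a group whose adrenal glands had been removed 1 week earlier, and 2 further adrenalectomized groups that had received 0.1 mg cortisol into the peritoneum, 3 h before dissection in one and 24 h in the other. Adrenalectomy takes away the endogenous glucocorticoid, corticosterone, and cortisol is a glucocorticoid that binds its receptor. The labels name no vehicle-injected group, strain, age or sex, and give the time since surgery for the group without injection alone. With 1 array of 1 pool per group there was no replicate and no test. Each comparison sets 1 pool against another, and group, pool and fluidics station module (1 to 4 in the order above) cannot be told apart.

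Ribosomal protein messengers are among the most abundant in any cell. Many begin with a cytosine followed by a run of pyrimidines, the terminal oligopyrimidine (TOP) tract, through which growth signalling by the kinase mTOR controls how well they are translated. In muscle, glucocorticoids are known to restrain protein synthesis, partly by inducing inhibitors of mTOR. Array signals measure the amount of messenger and not its translation, and a bulk sample does not tell fewer cells of a type from less RNA per cell.

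The bright ribosomal protein sets differed little between intact and adrenalectomized muscle and were slightly and jointly higher 3 h after cortisol. All 19 sets with a mean signal of at least 1000 read higher at 3 h than after adrenalectomy alone, by a median of 9.25%. Of all probe sets of that brightness with 1 gene symbol, 47.6% were higher. For 16 of the 19 the 3 h signal was the highest of the 4 arrays, against 20.0% of sets of that brightness. At 24 h the median difference from adrenalectomy was 3.88%, with 14 of the 19 higher, against 48.6% of sets of that brightness. Rps19 stood apart with a signal 67.6% higher at 3 h. The plots of signals by array and of percent differences show both features.

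**Figure D1:**
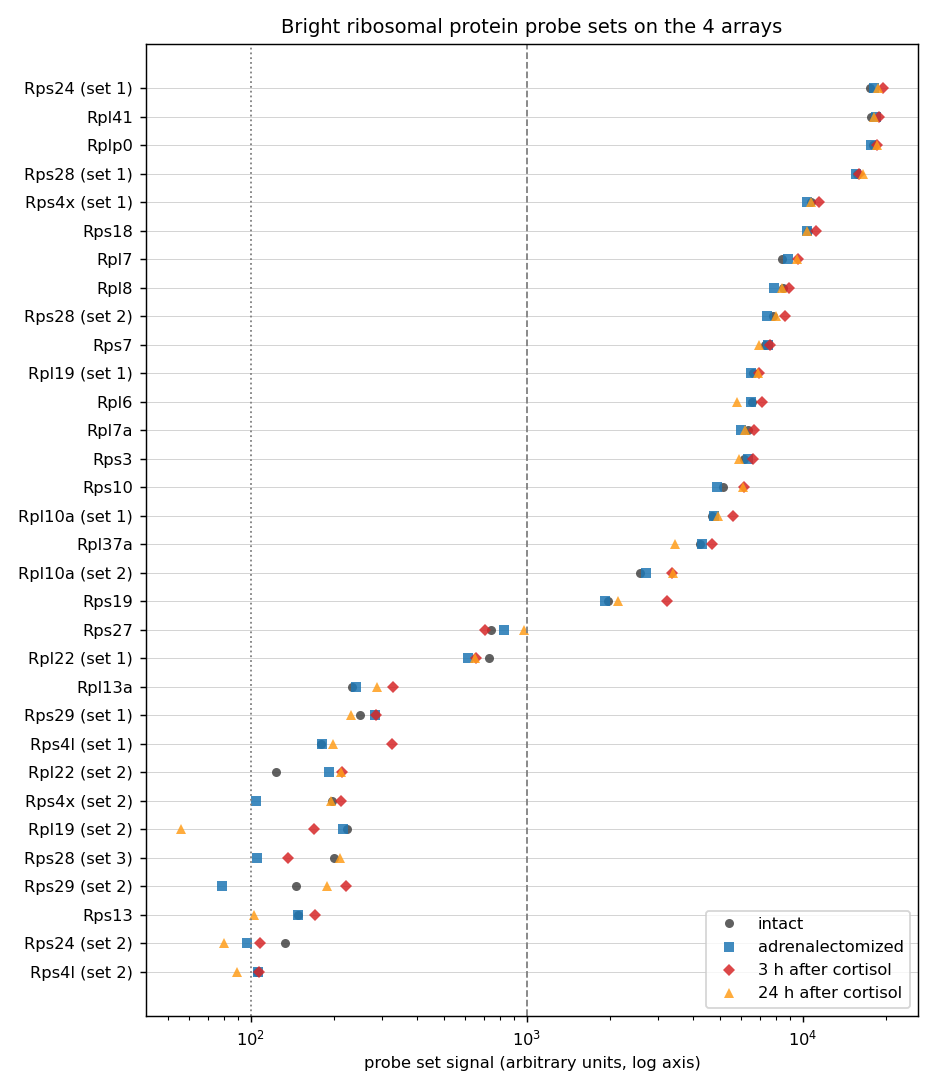
Signals of the 32 bright ribosomal protein probe sets on the 4 arrays (1 pool of 10 mice each), on a log axis; the dotted line marks the floor of 100 and the dashed line 1000. Sets of one gene are numbered from the brightest. For the 19 sets above the dashed line other than Rps19 the highest signal is at most 1.36 times the lowest, and signals spread out below it.

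The starts of these genes are shown because the TOP tract lies there and because the members shared a direction at 3 h. RefSeq entries on GRCm38.p6 matched 25 of the 32 genes. Each sequence below runs from 12 bases before the annotated start to 18 bases from it on, 5′ to 3′ on the transcribed strand, with the longest run of only C and T in capitals.
Rpl7a, chr2:26910795-26910824, plus strand: CCCTCTTCTTTCTTTCTCCagcagccgagc
Rps10, chr17:27635227-27635256, minus strand: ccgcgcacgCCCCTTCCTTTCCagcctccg
Rps18, chr17:33955648-33955677, minus strand: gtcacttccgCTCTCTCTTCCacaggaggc
Rps27, chr3:90213631-90213660, minus strand: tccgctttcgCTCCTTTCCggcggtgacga
Rpl41, chr10:128549151-128549180, minus strand: acgggccggCTCggaagtgacgacaccgag
Rps28, chr17:33824545-33824574, minus strand: accgcgtgcggTCTCgcgagagcgaaagtg
In the first 4 a pyrimidine run covers the annotated start, with 19 bases of it shown in Rpl7a, 13 in Rps10, 11 in Rps18 and 9 in Rps27. In Rpl41 and Rps28 the longest run in the window has 3 and 4 bases. A run of at least 8 bases of only C or T, searched on the transcribed strand within 25 bases on each side of any annotated start, occurred in 13 of the 25 member genes (52.0%). It occurred in 3855 of the 17491 protein-coding genes of the same table (22.04%). Such a run need not cover the start, as with the 14 bases in Rpl13a, so the count is not one of TOP tracts. Member genes had a mean of 1.36 annotated starts and the protein-coding genes one of 1.22, and more starts mean more windows searched. Among the 15 matched genes with a set of at least 1000 the count was 6. Annotated starts can lie some bases away from those used in muscle, so a missing run says only that these letters are not in the window. Of the 4 genes printed with a run over the start, Rpl7a, Rps10 and Rps18 were 11.7%, 25.5% and 8.62% higher at 3 h than after adrenalectomy, and Rps27 differed by -14.8%. Of the 2 printed without one, Rpl41 was 2.47% higher, and the 3 sets of Rps28 were 2.68%, 16.4% and 29.4% higher. The genes printed are examples, and whether a run goes with the difference at 3 h was not tested. Among genes not printed, Rps19, whose longest run has 7 bases, was 67.6% higher. The brightest Rps4x set and Rpl6, with longest runs of 4 and 6, were 10.4% and 9.31% higher. Rps24 has a run of 9 bases over 1 start, and its brighter set was 8.20% higher. Whether that set reads the transcript of Rps24 or of Rpl7 is unsettled.

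For adrenalectomized against intact mice, the question was how these messengers differ without adrenal hormones. The 32 bright sets had a median log2 ratio of -0.01, beside 0.01 over all 7370 probe sets compared. Those 7370 had only to reach the floor on at least 1 of the 2 arrays, so they include dim sets, which the 32 leave out. The same holds for the shares of all probe sets set beside the bright sets in the later comparisons. Of the 32, 15 were higher, against 52.4% of all probe sets. At the 1.5-fold limit 3 sets passed, 1 higher and 2 lower, against 5.09% of all probe sets, and none passed 2-fold (0.773% of all). These 3 had low signals. A set of Rps28, a small protein of the small subunit, read 201 in intact and 106 in adrenalectomized muscle, 1.90-fold lower. The second set of Rps4x, the X-linked S4 protein of the small subunit, read 197 and 104, 1.89-fold lower. The dimmer set of Rpl22, a large subunit protein that also binds other RNAs, read 123 and 192, 1.56-fold higher, while its brighter set read 730 and 612. In each of these genes another set differed in size or sign. The second set of Rps24, a small subunit protein, read 134 and 97.0.

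The sets of at least 1000 lay close together in that comparison, with log2 ratios from -0.11 to 0.08 and 8 of 19 higher, beside 42.7% of the 1674 probe sets of the same brightness. Rpl8, a protein near the peptidyl transferase centre, read 8517 in intact and 7905 in adrenalectomized muscle, the lowest ratio among them. The highest ratio was that of a set of Rpl10a, with 2566 and 2715. Rplp0, the scaffold of the acidic stalk that binds translation factors, read 17995 and 17634. It was the only stalk gene with a probe set annotated to it alone. The large subunit sets of at least 1000 had a median log2 ratio of 0.02 over 9 and the small subunit sets one of -0.02 over 9.

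The comparison of 3 h with adrenalectomy addressed the early response to the hormone, and here the direction was shared. The 32 bright sets had a median log2 ratio of 0.13, beside -0.02 over 7432 probe sets, and 30 of the 32 were higher, against 46.6% of all. The 19 sets of at least 1000 were all higher, against 47.6% of the probe sets of that brightness, with log2 ratios from 0.02 to 0.75, a median of 0.13 and quartiles of 0.09 and 0.20. The median was 0.13 over the 9 large subunit sets and 0.12 over the 9 small subunit sets. The count past 1.5-fold was 4, all higher, beside 10.1% of all probe sets in either direction and 5.18% higher. Of these, 2 passed 2-fold, beside 3.09% in either direction and 1.86% higher. Most sets thus shared a small difference, and few had a large one. Each of these counts compares 1 array with another. On the same arrays the summed signal of 10 epidermis and hair markers was 1376 after adrenalectomy and 9013 at 3 h, and that of 8 slow fibre markers 66958 and 19342, and their part in the difference was not tested.

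The error of a single probe set's log2 ratio was taken from the 132 genes with 2 sets of at least 1000, as the SD of the difference between them over the square root of 2, and was 0.16 at 3 h. Over 1018 genes with 2 bright sets it was 0.31, and over the 8 member genes with 2 or more it was 0.45. This spread holds no variation between mice or pools. A difference of 9% in 1 member set is thus inside the error of that set, and what the data show is that all 19 lay on one side. The 19 sets share their RNA, array and scaling, so they are not 19 independent measurements.

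**Figure D2:**
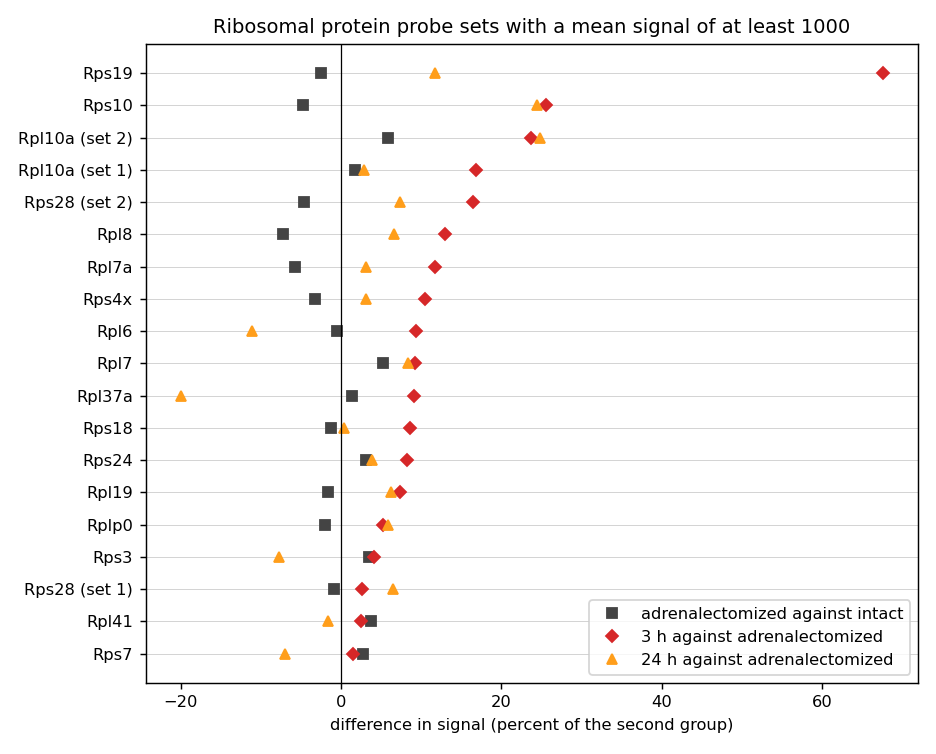
Difference in signal, in percent of the second group's signal, for the 19 ribosomal protein probe sets with a mean signal of at least 1000 in the 3 main comparisons (1 array per group, no error bars). At 3 h all points lie above 0, from 1.51% for Rps7 to 67.6% for Rps19, while the adrenalectomized and 24 h points lie on both sides.

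Rps19, a protein of the head of the small subunit whose mutation causes Diamond-Blackfan anaemia in humans, had the largest ratio among the bright sets of at least 1000. Its signal was 1969 in intact, 1919 in adrenalectomized, 3217 at 3 h and 2144 at 24 h. Among these the 3 h array alone was high, at 1.68-fold over adrenalectomy, and the other 3 lay within 11.7% of one another. Rps19 had 1 probe set, so no second set could be compared.

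Rps10, also of the small subunit, read 5133, 4887, 6135 and 6079 on the 4 arrays, in the order used throughout (intact, adrenalectomized, 3 h, 24 h). It was higher on both arrays after cortisol, by 25.5% and 24.4% over adrenalectomy. Rpl10a, a protein of the L1 stalk through which used transfer RNA leaves, was measured by 2 sets. The brighter read 4714, 4795, 5604 and 4933, and the dimmer 2566, 2715, 3359 and 3388. Both were higher at 3 h, by 16.9% and 23.7%, but at 24 h they were 2.88% and 24.8% above adrenalectomy, so the 2 sets of 1 gene disagreed on the later time.

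The large subunit proteins Rpl8 and Rpl7a were 12.9% and 11.7% higher at 3 h. Rpl8 read 7905 after adrenalectomy and 8926 at 3 h, and Rpl7a 5974 and 6673. Rps4x had signals of 10736, 10385, 11469 and 10710, and Rps18 of 10464, 10335, 11226 and 10371. Both had their highest signal at 3 h and lay within 4% of the adrenalectomized array otherwise. Rpl7, of the large subunit, read 8398, 8834, 9651 and 9577, so it stayed high at 24 h. Rpl6, which binds the large subunit's RNA, read 6532, 6503, 7108 and 5777, so it did not. At 3 h they were 9.25% and 9.31% higher than after adrenalectomy, and the brighter Rpl19 set was 7.40% higher.

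Among the sets of at least 1000 the smallest differences at 3 h were those of Rps7 at 1.51%, Rpl41 at 2.47%, the brighter set of Rps28 at 2.68% and Rps3 at 4.08%. Rps3, at the channel where messengers enter the small subunit, read 6144, 6359, 6618 and 5870. Rps7 read 7305, 7503, 7616 and 6980, highest at 3 h and lowest at 24 h as Rps3 was. Rpl41, a peptide of the large subunit and among the smallest proteins of the cell, read 17747, 18420, 18875 and 18118. The other set of Rps28 was 16.4% higher, with 7437 after adrenalectomy and 8657 at 3 h. The 4 brightest sets, with mean signals from 15947 to 18538, were 2.47% to 8.20% higher. They lay below the highest signals of the arrays, which were 34254 to 36007, and whether differences at such signals were compressed was not tested. One of these 4, annotated to Rps24, was designed from the same accession as the set of Rpl7, so which of the 2 transcripts it reads is unsettled. It read 17580, 18128, 19614 and 18831, whereas the other Rps24 set had a mean signal of 105.

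Below 1000 the bright sets went further and less evenly. A set of Rps29, a zinc-binding protein of the small subunit, read 146, 78.5, 221 and 188, so its ratio at 3 h was at least 2.21-fold, since the adrenalectomized signal was below the floor. The other Rps29 set read 249, 282, 285 and 232 and was 1.07% higher. The second set of Rps4x was 2.04-fold higher, with 104 and 212, and its brightest set 10.4% higher. A set of Rps4l, a paralogue of S4, read 180, 181, 325 and 199, which is 1.80-fold higher at 3 h alone, while the other Rps4l set read between 88.9 and 107 on all arrays. Rpl13a, of the large subunit, read 234, 241, 327 and 287, which is 35.7% higher at 3 h.

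Only 2 bright sets were lower at 3 h. Rps27, a zinc finger protein of the small subunit, read 745, 829, 706 and 978 and was thus lowest at 3 h and highest at 24 h. The dimmer set of Rpl19 read 223, 216, 170 and 55.8, and differed from the brighter one, which read 6602, 6497, 6978 and 6902. The members whose sets differ most in brightness were Rpl7, Rps4x, Rps24, Rps28 and Rpl19, with the brightest set 40.6 to 586 times the dimmest. The dimmest set of each lay between 15.6 and 166 in mean signal, near or below the floor.

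**Figure D3:**
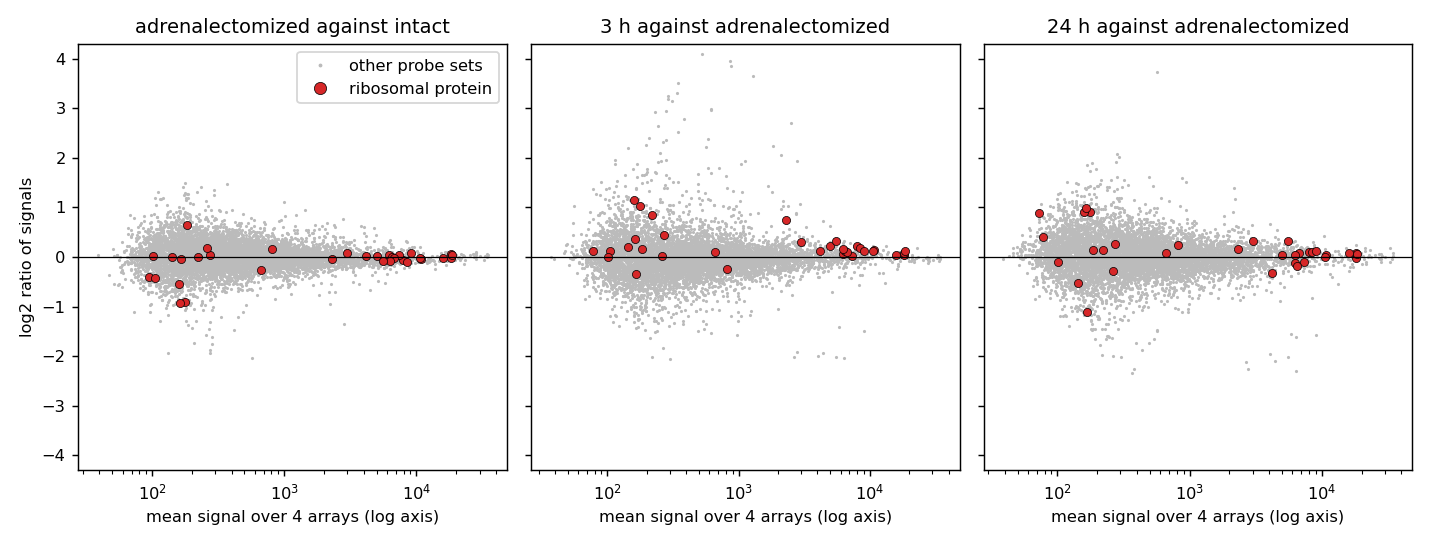
Log2 ratio of signals against the mean signal over the 4 arrays (log axis) in the 3 main comparisons; grey points are all other probe sets with 1 gene symbol and red points the ribosomal protein sets compared. Scatter narrows with signal, and at 3 h all 19 red points with a mean signal of at least 1000 lie above 0.

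At 24 h against adrenalectomy the members split. The median log2 ratio was 0.08 over 31 bright sets, beside 0.01 over 7525 probe sets, with 22 of the 31 higher against 51.3% of all. The 4 sets past 1.5-fold (10.6% of all probe sets) were 3 higher and 1 lower, all with mean signals below 1000, and 1 passed 2-fold (2.46% of all). The third set of Rps28 read 211 against 106, the second set of Rps29 was at least 1.88-fold higher and the second set of Rps4x 1.88-fold. All 3 had their lowest signal on the adrenalectomized array. The dimmer set of Rpl19 was at least 2.16-fold lower, and Rps13, a small subunit protein, read 103 against 148. Among sets of at least 1000, 14 of 19 were higher, against 48.6% of probe sets of that brightness, and the log2 ratios ran from -0.32 to 0.32. Rpl37a, a zinc finger protein of the large subunit, had the lowest ratio, with 4305 after adrenalectomy, 4697 at 3 h and 3444 at 24 h. Rpl6, Rps3 and Rps7 had their lowest signals at 24 h too, with log2 ratios of -0.17, -0.12 and -0.10 against adrenalectomy. Rps10 and the dimmer Rpl10a set were the highest.

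Between 3 h and 24 h the sets went the other way. Of the 32 bright sets 27 were lower at 24 h, with a median log2 ratio of -0.11 beside 0.03 over all 7534 probe sets, of which 55.3% were higher. Of the 19 sets of at least 1000, 16 were lower, and the exceptions were Rplp0, the brightest Rps28 set and the dimmer Rpl10a set, at log2 ratios of 0.01 to 0.05. Of probe sets of that brightness, 51.9% were higher. Against intact mice the 3 h array had a median log2 ratio of 0.11 over the bright sets, with all 19 sets of at least 1000 higher, against 42.5% of probe sets of that brightness, and 27 of the 32 bright sets higher against 47.8% of all. The 24 h array had one of 0.03, with 17 of 32 higher against 53.9% of all, and 11 of 19 against 45.0%. The comparisons share arrays, so they are not separate evidence.

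Counted over the 4 arrays, the 3 h array was highest for 24 of the 32 bright sets, the 24 h array for 5, the intact array for 3 and the adrenalectomized array for none. The share over all probe sets with a mean signal of at least 100 was not computed for these counts. Among the sets of at least 1000 the 3 h array was highest for 16 of 19, against 20.0% of all probe sets of that brightness. The adrenalectomized array was lowest for 10 of the 19, against 22.7%. Summed over all 46 members, the signal was 170571 in intact, 169770 in adrenalectomized, 185162 at 3 h and 175360 at 24 h, or 1.93%, 1.92%, 2.11% and 1.99% of the array's summed signal.

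Another 38 probe sets list a ribosomal protein gene together with other gene symbols, and were left out by the rule. This group was formed after the values had been seen, and no gene is named from it. Among its 23 sets with a mean signal of at least 1000, 21 were higher at 3 h than after adrenalectomy, with a median log2 ratio of 0.08. Of the probe sets of that brightness with 1 symbol, 47.6% were higher. The 3 h array was the highest of the 4 for 17 of the 23, against 20.0%. At 24 h 14 of the 23 were higher than after adrenalectomy, against 48.6%, with a median of 0.02. These sets read other probes but the same RNA, so they repeat the direction on the same arrays and not in other mice. One set of this group had a log2 ratio of 2.42 at 3 h, with 135 after adrenalectomy, 719 at 3 h and 702 at 24 h.

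**Figure D4:**
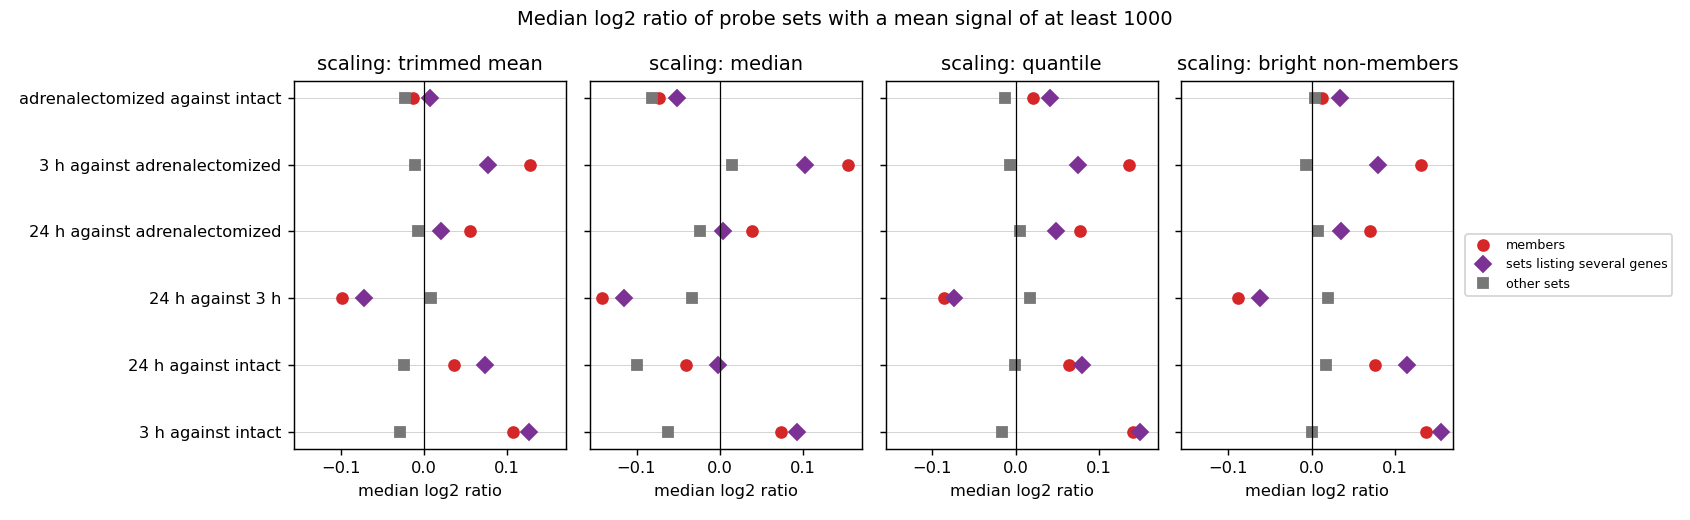
Median log2 ratio in the 6 comparisons for probe sets with a mean signal of at least 1000, under 4 ways of scaling the arrays: 19 ribosomal protein sets (circles), 23 sets that list a ribosomal protein gene with other genes (diamonds) and 1655 other sets with 1 symbol (squares). At 3 h against adrenalectomy the circles stay between 0.13 and 0.15 and the squares between -0.01 and 0.02.

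Scaling sets the zero of such small differences. With the arrays scaled to a common median, to equal distributions, or to the bright sets that are no members, the members of at least 1000 had a median log2 ratio of 0.15, 0.14 and 0.13 at 3 h against adrenalectomy, and 19 of 19 were higher each time. The other sets of that brightness had medians of 0.02, -0.01 and -0.01. For adrenalectomized against intact the median of the 19 sets was -0.01, -0.07, 0.02 and 0.01 under the trimmed mean and these 3 scalings, with 8, 2, 11 and 12 higher. The other sets shifted alongside, with medians of -0.02, -0.08, -0.01 and 0.0038 and shares higher of 42.7%, 28.5%, 45.0% and 51.5%. For 24 h against intact 11, 6, 13 and 14 of the 19 were higher in the same order, beside 44.9%, 30.3%, 49.1% and 53.1% of the other sets. For 24 h against 3 h the counts were 3, 1, 3 and 3, beside 52.3%, 41.3%, 53.6% and 54.9%.

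The 14 dim sets are of 11 genes, and 4 of them reached the floor of 100 on any array. They were the sets of Rps14 (132 at 24 h), Rpl32 (186 at 24 h), Rpl35a (108 at 3 h) and Rps4x (132 in intact mice), each on 1 array. The dim sets of Rps15, Rps20, Rpl38 and Rpl39, proteins of the cytosolic ribosome, stayed below the floor throughout, as did the second set of Rpl7 at 10.9 to 19.9. Since the brighter Rpl7 set read 8398 to 9651, a dim set says nothing of a low messenger. The paralogues Rps27l and Rpl39l had 1 dim set each, with signals of 17.2 to 39.1 and 17.5 to 57.6, and cannot be called present or absent. Rps6, the target of the S6 kinases, had no probe set annotated to it alone and was not analysed here.

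Other genes of the translation machinery were described by lists, with 1 probe set per gene, and whether they differ from the ribosomal proteins was not tested. Rpsa, the ribosomal protein SA outside the naming rule, read 2893, 2939, 3264 and 2763 and was thus highest at 3 h, as most members were. Rpl7l1, a paralogue of Rpl7, read 184, 186, 131 and 152 and was lowest there. Fau, which encodes a ubiquitin-like protein fused to ribosomal protein S30, read 111 after adrenalectomy and below the floor on the other arrays.

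Mitochondrial ribosomal proteins, which serve the separate ribosome of that organelle, showed, at 3 h over 59 genes, a median log2 ratio of 0.04, with 32 higher, 1 past 1.5-fold higher (Mrps24, 1591 against 1044) and none lower. Over all 6168 genes compared the median was -0.02, 46.8% were higher and 9.82% passed 1.5-fold. Against intact their median was -0.02 after adrenalectomy, and at 24 h against adrenalectomy it was 0.01. None was past 1.5-fold in either, against 4.91% and 10.0% of all genes compared. Mrps33 read 557 after adrenalectomy, 749 at 3 h and 785 at 24 h, and Mrpl21 was lower at 3 h, with 757 against 1002.

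Initiation factors, which load the ribosome onto messengers, had medians of -0.01, 0.01 and -0.00042 in the 3 main comparisons over 32 genes. At 3 h 18 of 32 were higher, against 46.8% of all genes compared, and none passed 1.5-fold, against 9.82%. Eif2b2, a subunit of the exchange factor of Eif2, read 880 against 639. Eif3e, a subunit of the Eif3 complex, read 1101 against 880. At 24 h 3 were past 1.5-fold higher and 1 lower, or 12.5% of the 32, near the 10.0% of all 6228 genes compared. Eif2s2, a subunit of Eif2, read 715 against 441, Eif3f 216 against 140, Eif4b, a helper of the helicase, 3034 against 1979, and Eif4e, which binds the cap, 112 against 183.

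Elongation factors had medians of -0.02, -0.01 and 0.03 over 5, 5 and 6 genes. None passed 1.5-fold, against 4.91%, 9.82% and 10.0% of all genes compared. Eef1a2, the form of the transfer RNA carrier typical of muscle, read 23232 after adrenalectomy and 23087 at 3 h, and Eef1a1 read 10008 and 10408. Eef1d read 1187 and 1311, Eef2, the translocase, 7931 and 7501, and Eef1b2 460 and 319. These factors are also made from TOP messengers, and 2 of the 5 compared were higher at 3 h, against 46.8% of all genes. Of 8 other TOP messengers compared, 4 were higher, with a median of 0.000092, and Vim, an intermediate filament protein, was at least 1.66-fold higher (166 against 79.0). Hnrnpa1 was also higher, with 276 after adrenalectomy and 307 at 3 h. Tpt1, a growth-related protein, read 28591 and 27356, Npm1, the nucleolar chaperone, 2161 and 2046, and Pabpc1, the poly(A)-binding protein, 1849 and 1779. The medians of these lists at 3 h, -0.01 and 0.000092, lay near 0 while that of the bright ribosomal protein sets was 0.13, a difference that was not tested. No median over all TOP genes outside the ribosome was taken, and the lists may not hold all of them.

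Genes of ribosome assembly and of ribosomal RNA synthesis had medians of 0.01, -0.04 and 0.04 over 36 genes. At 3 h 16 of 36 were higher, against 46.8% of all genes, and 2 were past 1.5-fold lower. Of all 6168 genes compared, 293 were past 1.5-fold lower. Nolc1, a nucleolar phosphoprotein, was at least 1.96-fold lower (87.1 against 196), and Imp4, of the small subunit processome, read 191 against 349. Taf1b, a factor of RNA polymerase I, read 448 against 302. Utp14a, of the same processome, was 2.22-fold higher after adrenalectomy (273 against 123) and at least 2.73-fold lower at 24 h.

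Regulators around mTOR and the S6 kinases had a median near 0 at 3 h (-0.02 over 12 genes) with 2 members past 2-fold higher. Of all 6168 genes compared, 115 were past 2-fold higher. Ddit4, which restrains mTOR, read 339 after adrenalectomy and 4250.3 at 3 h, and Sesn1, another restraint, 828 and 2043. Eef2k, the kinase that inhibits Eef2, was lower, with 307 after adrenalectomy, 199.5 at 3 h and 165 at 24 h. Ddit4 read 223 at 24 h.

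**Figure D5:**
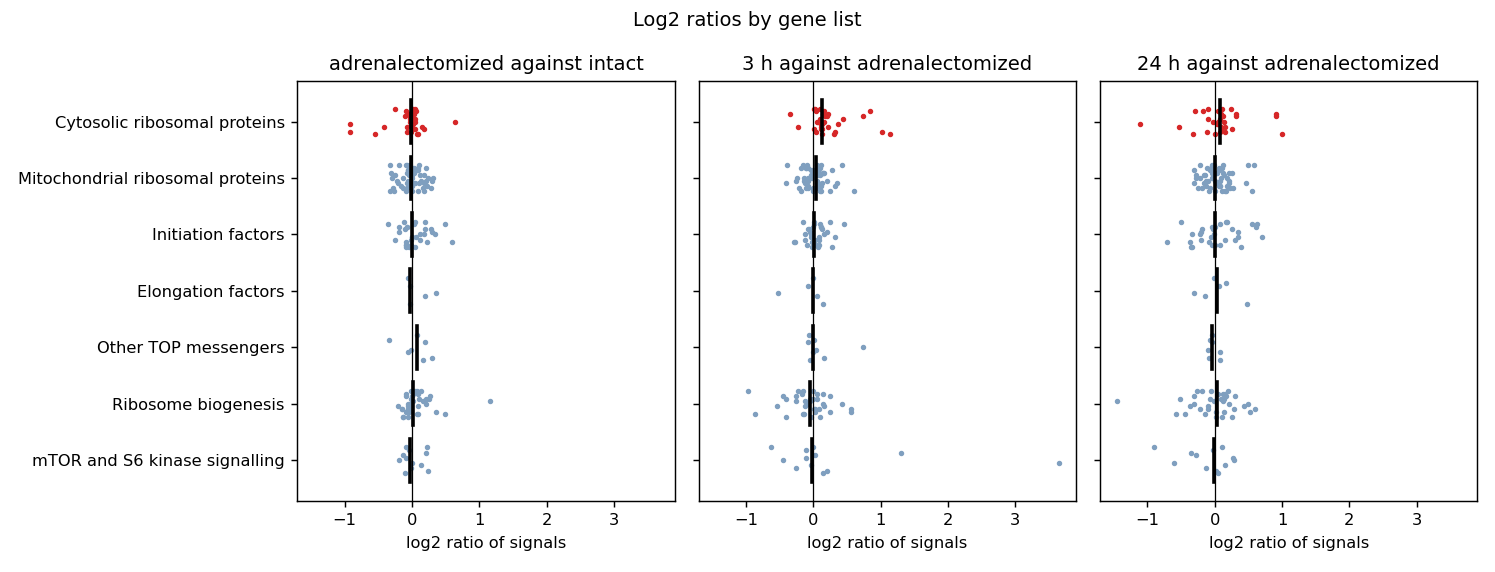
Log2 ratio of signals in the 3 main comparisons for the 32 (31 at 24 h) bright ribosomal protein sets (red) and for the genes of 6 other lists (blue, 1 set per gene); the vertical bar in each row is the median. The ribosomal protein median at 3 h is 0.13, and those of the other 6 lists at 3 h lie between -0.04 and 0.04.

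The 10 markers of muscle fibres, which include Ckm, Acta1 and fast fibre genes such as Myh4, Actn3 and Pvalb, were above the floor on every array. Their summed signals ran from 223636 to 232692, and no slow fibre marker was among them. The 8 slow fibre markers summed to 58850 in intact, 66958 in adrenalectomized, 19342 at 3 h and 17832 at 24 h. The 10 epidermis and hair markers summed to 1180, 1376, 9013 and 2529, with 4, 5, 7 and 7 of them above the floor and Krt5, Krt14 and Krt15 below it throughout. The 6 hepatocyte markers summed to 3902, 2697, 1207 and 842, the 7 lymphocyte markers on the array to 1023, 790, 1121 and 1783, the 7 macrophage markers to 3356, 3765, 2811 and 3430, and the 3 erythroid markers to 6560, 8465, 9059 and 8228. The epidermis and hair sum was highest on the 3 h array, and the slow fibre sum was low on both arrays after cortisol.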

How the data were processed

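Total RNA from pooled gastrocnemius was hybridized to 4 MG-U74Av2 arrays. The deposited values are intensity signals per probe set on a linear scale, obtained by the authors with MAS 5.0, per the labels. Each column of the deposited table has a trimmed mean near 500, so the authors had scaled the arrays; other settings are not given in the sources used here.

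Each array was rescaled to a trimmed mean of 500 over the 12422 probe sets that are no controls (2% left out at each end; 66 controls). Before log2 ratios were taken, any signal under 100 was raised to that floor, and a probe set was compared where at least 1 of the 2 arrays reached the floor. Gene symbols come from the platform's annotation, and all 46 member sets kept theirs against RefSeq GRCm38.p6. Of the members, 15 sets carry a suffix for shared or relaxed probes, and their signals may include other transcripts. In the other lists a gene was represented by its brightest set. With 1 array per group nothing was tested. Folds of 1.5 and 2 were used to count sets. The scaling and ratios were tested on simulated data with 2-fold changes, and differences as small as those of most members were not simulated. Python 3.11.15, numpy 2.4.6 and pandas 2.3.3 were used.

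Members named were, in each main comparison, the 5 bright sets with the highest and the 5 with the lowest ratio, all past 1.5-fold, the brightest and dimmest, those whose sets disagree, the stalk and the paralogue pairs, and up to 3 genes of each list with the largest ratios; other members were named after their values were seen. The members and the lists were chosen with earlier results of these data known. The 9 alternatives concern scaling, floor, probe sets per gene, suffixes and brightness, and 1 was added after seeing the data.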

Additional observations from a re-analysis of the deposited data

How the results depend on the processing

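Medians were recomputed under 9 alternatives and 1 added after seeing the data. The median log2 ratio of the bright members ran from -0.07 to 0.02 for adrenalectomized against intact, 0.12 to 0.15 for 3 h against adrenalectomized, 0.05 to 0.10 for 24 h against adrenalectomized, -0.15 to -0.08 for 24 h against 3 h, -0.04 to 0.07 for 24 h against intact and 0.07 to 0.14 for 3 h against intact. Scaling by another constant shifts all probe sets alike, and members minus the median of all sets ran, in the same order, from -0.03 to 0.01, 0.14 to 0.15, 0.05 to 0.08, -0.16 to -0.11, -0.03 to 0.06 and 0.12 to 0.16. The share of bright members higher at 3 h ran from 89.4% to 100%, the latter with a mean signal of at least 1000. Counts past 1.5-fold came, apart from Rps19 at 3 h, from sets with mean signals below 1000, and are given in the order adrenalectomized against intact, 3 h and 24 h against adrenalectomized, where they were 3, 4 and 4. They were 0, 2 and 0 with a floor of 200, 0, 2 and 0 with the brightest set per gene, and 0, 1 and 0 with the mean of bright sets per gene. Without suffixed sets they were 1, 2 and 2, and with a mean signal of at least 1000 they were 0, 1 and 0. No paired analysis was possible because each group has 1 array. The number of arrays limits the precision.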
